A study of Drosophila melanogaster with 12 samples.

Results

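The 2 *ash2* alleles of this series were set against its *ash1* allele, gene by gene, in wing imaginal discs of *Drosophila melanogaster*. For each gene, the mean of the ash2-I1 and ash2-112411 levels minus the ash1-22 level was taken, over 4 *ash2* RNA extractions and 2 *ash1* extractions, and the gene had to be measured in all 3 alleles. Of 11751 genes with a value in the series, 5440 met this rule. The discs came from larvae of the third instar staged by bromophenol blue in the gut, of the genotypes w1118;+;ash2I1 (here ash2-I1), w1118;+;ash2112411 (ash2-112411) and ash1-22 combined with the ash1-22 F2A chromosome (ash1-22). Every array paired one mutant with the same pool of RNA from discs of the w1118;+;+ isogenic line of the DrosDel collection, and the dyes were exchanged between the 2 arrays of each extraction, so that 12 arrays carry 6 extractions. Chromosomes X, Y and 2 of the mutants had been replaced by those of the isogenic line, whereas chromosome 3, which carries both mutated genes, had not. By the study's account, ash2-I1 larvae die late in larval life or early in pupal life, ash2-112411 is the weaker allele, with some adults, and ash1-22 is a null.

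*ash1* and *ash2* belong to the trithorax group, whose proteins keep genes active through cell divisions and oppose the silencing Polycomb group. ASH2 is a shared subunit of the complexes that methylate lysine 4 of histone H3 at active genes, while ASH1 carries its own methyltransferase domain and acts in another complex. Loss of either gene in the wing disc, the larval sac of epithelium that forms the wing and the notum, gives small discs and homeotic changes. A direct contrast of the mutants asks which genes answer to one of them and not, or not equally, to the other, and in it the reference pool drops out of the difference.

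All values below are log2 ratios of mutant over pool, and differences are *ash2* minus ash1-22 with the standard error (SE) of the limma fit. A gene is called when its adjusted p is under 0.05 and the difference is over 1.5-fold (0.58 on the log2 scale). The labels give separate extractions but not separate cultures, so the p-values measure the spread between extractions. The arrays of each allele had been scaled as a set of their own. The ratios spread differently in each set: the median absolute deviation per array was between 0.187 and 0.258 for ash2-I1, between 0.267 and 0.313 for ash2-112411 and between 0.133 and 0.170 for ash1-22. A difference between alleles cannot be told apart from one between their array sets. The arrays measured 5804 to 11179 spots each, the fewest on an array of ash1-22 extraction 2. In ash1-22 extraction 1 the larval fat body genes *Lsp2*, a larval serum protein, and *Fbp1*, a receptor for such proteins, stood at 4.19 and 2.26, whereas in ash1-22 extraction 2 they stood at −0.35 and −0.13.

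The mutated gene separated the groups. *ash2* stood at −2.10 and −1.40 in the ash2-I1 extractions and at −1.77 and −1.48 in the ash2-112411 extractions, against 0.19 and 0.34 in the ash1-22 extractions (9 of 12 arrays measured). The difference was −1.95 ± 0.19 (SE, adjusted p = 0.0014). No probe in the annotation used carries the symbol *ash1*, so the loss of *ash1* was not checked here.

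Across the genome, 205 genes (3.77% of those tested) were higher in *ash2* than in ash1-22 discs and 242 (4.45%) were lower, which makes 447 called genes or 8.22%. More than 2-fold, there were 54 higher and 47 lower. With the adjusted p alone, 591 genes (10.9%) were higher and 735 (13.5%) lower. The 4 *ash2* extractions lay wholly above both ash1-22 extractions for 807 genes (14.8%) and wholly below for 1104 (20.3%), and 185 of the 205 higher and 231 of the 242 lower calls were among these. Most calls were genes away from the pool in *ash2* and near it in ash1-22: for 68 higher and 122 lower genes both *ash2* alleles were over 1.5-fold from the pool and ash1-22 was not, and for 88 higher and 68 lower genes this held for 1 of the *ash2* alleles. The reverse, ash1-22 beyond 1.5-fold and both *ash2* alleles within, was seen for 13 higher and 5 lower genes. For 3 genes each *ash2* allele was over 1.5-fold from the pool on one side and ash1-22 on the other. Over all genes tested, called or not, 301 had both *ash2* alleles over 1.5-fold from the pool and ash1-22 within. For 1076 this held for 1 of the *ash2* alleles, and 35 had ash1-22 beyond and both *ash2* alleles within. The lean of the classes towards *ash2* was thus not particular to the called genes. The ratios of ash1-22 spread least, and the part of this in the classes was not tested.

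**Figure D1:**
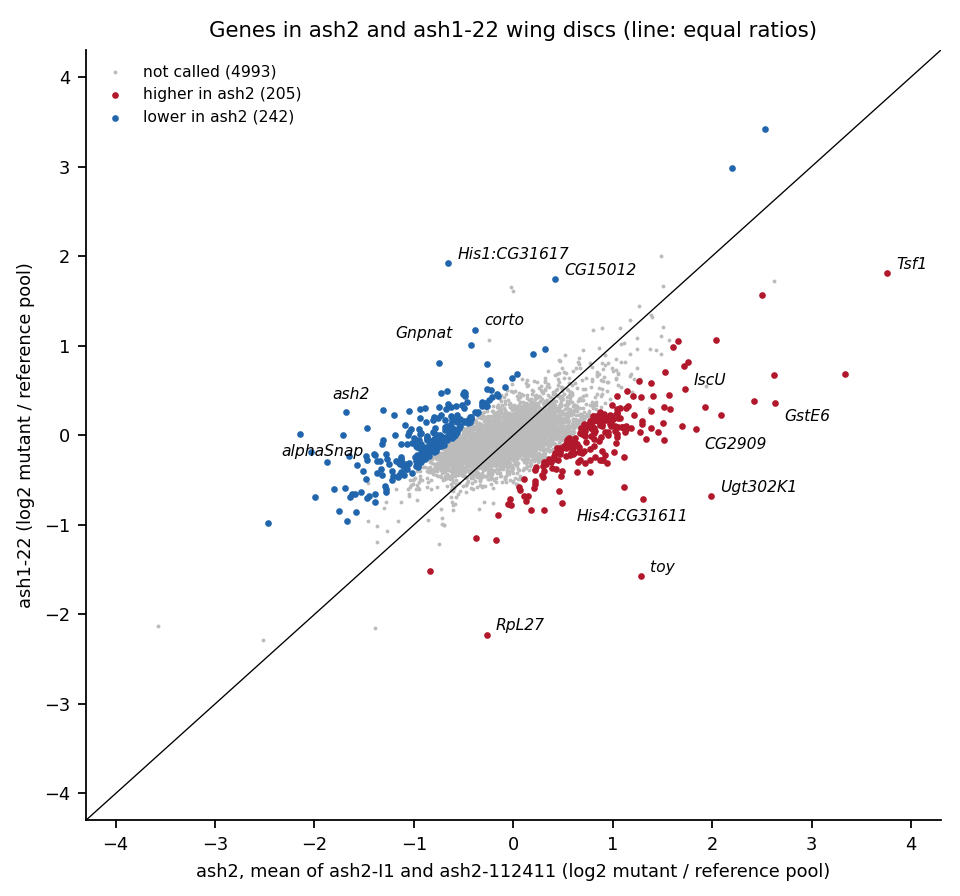
Each point is 1 of the 5440 genes, with the mean log2 ratio of mutant over reference pool in *ash2* (ash2-I1 and ash2-112411 averaged) on the horizontal axis and in ash1-22 on the vertical axis. The diagonal marks equal ratios, red points are the 205 genes called higher and blue points the 242 called lower in *ash2*, and the named genes are described in the text. The cloud is wider along the *ash2* axis, and *toy* lies farthest below the diagonal, with *RpL27* the called gene lowest on the ash1-22 axis.

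The count depends on the ash1-22 extractions. Without ash1-22 replicate 1, 151 genes were higher and 189 lower, and without ash1-22 replicate 2 there were 107 and 117. With 1 ash1-22 sample left, its spread was assumed to be that of the *ash2* alleles. The *ash2* alleles also differed from each other. Over 1.5-fold with an adjusted p under 0.05, 455 of the 5440 genes (8.36%) were higher and 378 (6.95%) lower in ash2-I1 than in ash2-112411. Set against ash1-22 one allele at a time, 345 genes (6.34%) were higher and 356 (6.54%) lower in ash2-I1, and 303 (5.57%) were higher and 351 (6.45%) lower in ash2-112411. Of the genes called for the 2 alleles together, 88 higher and 117 lower ones were also called for each allele alone.

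The genes furthest above ash1-22 were of mixed function. *toy*, a Pax6 transcription factor of the eye, stood at 2.06 and 0.56 in ash2-I1 and at 1.32 and 1.19 in ash2-112411, against −1.58 and −1.58 in ash1-22, a difference of 2.86 ± 0.35 (adjusted p = 0.0027). *Ugt302K1*, a UDP-glycosyltransferase of the family that conjugates sugars to small lipophilic compounds, was likewise above the pool in *ash2* (3.01 and 2.27 in ash2-I1, 1.44 and 1.23 in ash2-112411) and below it in ash1-22 (−0.74 and −0.62), with a difference of 2.67 ± 0.19 (adjusted p = 6.57e-04). Besides the histone gene *His4:CG31611*, these are the only called genes for which each *ash2* allele mean was over 1.5-fold from the pool on one side and the ash1-22 mean over 1.5-fold on the other. *His4:CG31611* differed by 2.02 ± 0.39 (adjusted p = 0.012), but histone genes are a repeated family that a probe may not separate, and the call was lost without ash1-22 replicate 1 (adjusted p = 0.061) or replicate 2 (0.08), and for ash2-112411 alone (0.059). *His1:CG31617*, on 9 arrays, lay the other way, at 0.39 and −0.68 in ash2-I1 and −1.47 and −0.86 in ash2-112411 against 1.82 and 2.03 in ash1-22 (−2.58 ± 0.29, adjusted p = 0.0022).

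A further set stood above the pool in *ash2* and near it, or less above it, in ash1-22. *Tsf1*, a secreted transferrin that binds iron, was above the pool in every extraction, at 4.32 and 3.71 in ash2-I1 and 3.35 and 3.68 in ash2-112411 against 1.96 and 1.66 in ash1-22, and differed by 1.95 ± 0.19 (adjusted p = 0.0014). On a scale common to all arrays that difference shrank to 0.69. *IscU*, the scaffold on which mitochondria build iron-sulfur clusters, stood at 2.22 and 1.69 in ash2-I1 and 1.40 and 1.59 in ash2-112411, against 0.58 and 0.46 in ash1-22. Its difference of 1.21 ± 0.15 (adjusted p = 0.0031) was 0.79 on the common scale. *mirr*, an Iroquois homeobox gene that patterns the dorsal side and the notum of the disc, was close to the pool in ash1-22 (−0.19 and −0.18) and raised in all 4 *ash2* extractions (1.26 and 0.71 in ash2-I1, 1.21 and 0.86 in ash2-112411), a difference of 1.20 ± 0.17 (adjusted p = 0.004). *Archease*, whose human homologue assists the tRNA ligase, differed by 1.17 ± 0.11 (adjusted p = 0.0013). *Jhbp7* stood at 3.41 and 2.42 in ash2-I1 and 1.86 and 2.79 in ash2-112411, against 0.48 and 0.86 in ash1-22 (1.94 ± 0.33, adjusted p = 0.0072), and was not called without ash1-22 replicate 1 (0.056). Larger in ash2-I1 than in ash2-112411 were *CG2909*, at 2.62 and 2.43 against 1.09 and 1.20, and the Osiris family gene *Osi14*, at 1.40 and 1.26 against 0.58 and 0.55, and both alleles lay above ash1-22 for each gene.

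Among the genes lower in *ash2*, many were far below the pool in *ash2* and near it in ash1-22. *alphaSnap*, which works with NSF to take apart SNARE complexes after membrane fusion, stood at −2.42 and −2.04 in ash2-I1 and −2.12 and −2.02 in ash2-112411, against −0.10 and 0.13 in ash1-22. All 4 *ash2* extractions lay below ash1-22, and the difference was −2.17 ± 0.13 (adjusted p = 3.20e-04). *GNBP3*, a recognition protein for fungal glucans, differed by −1.72 ± 0.16 (adjusted p = 0.0012), with ash1-22 at −0.09 and 0.09. *CG11899* stood at −2.81 and −1.58 in ash2-I1 and −1.46 and −1.65 in ash2-112411, against −0.35 and −0.25 in ash1-22 (−1.57 ± 0.29, adjusted p = 0.01), and was not called without ash1-22 replicate 1 (0.057) or replicate 2 (0.074). *mdy*, a diacylglycerol acyltransferase of triglyceride synthesis, differed by −1.32 ± 0.11 (adjusted p = 9.40e-04) and *Sod3*, an extracellular superoxide dismutase, by −1.22 ± 0.09 (adjusted p = 7.35e-04). *in* (*inturned*), which restricts the wing hair to one corner of its cell, was at −1.57 and −1.49 in ash2-I1 and −0.87 and −0.84 in ash2-112411 while ash1-22 stood at 0.01 and 0.00, so that the weaker allele took a place between. *Idh*, the NADP-dependent isocitrate dehydrogenase, differed by −1.20 ± 0.15 (adjusted p = 0.0033).

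**Figure D2:**
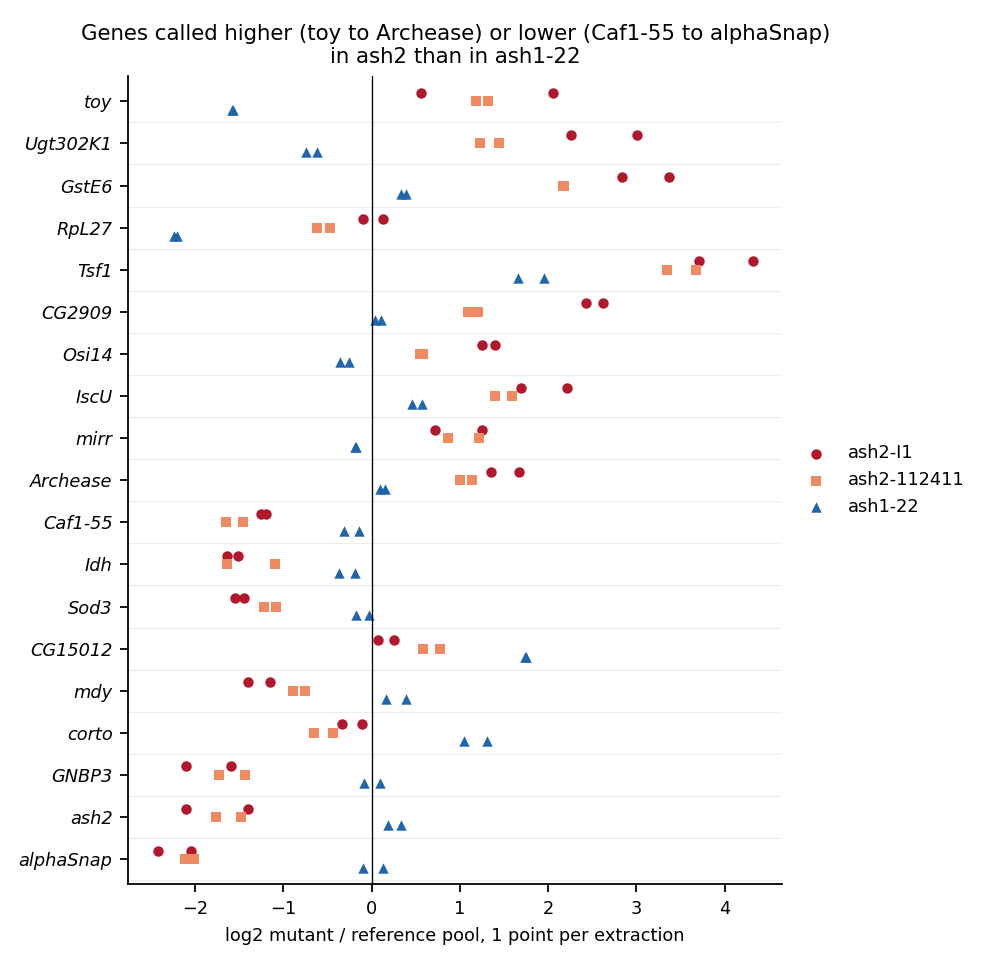
Log2 ratio of mutant over reference pool for 19 called genes, 1 point per extraction (2 each of ash2-I1, ash2-112411 and ash1-22), with 0 as the level of the pool. For every gene shown the 4 *ash2* points lie on one side of both ash1-22 points. For *RpL27*, *corto* and *CG15012* it is ash1-22 that lies farther from the pool. By allele means this also holds for *toy*, with ash1-22 at −1.58 and the *ash2* alleles at 1.31 and 1.26.

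A smaller group stood away from the pool in ash1-22 and nearer to it in *ash2*. *RpL27*, a protein of the large cytosolic ribosomal subunit, stood at 0.13 and −0.09 in ash2-I1 and −0.48 and −0.62 in ash2-112411, against −2.21 and −2.24 in ash1-22, a difference of 1.96 ± 0.10 (adjusted p = 2.28e-04) that grew to 3.12 on the common scale. *corto*, a chromatin protein that interacts genetically with both the Polycomb and the trithorax group, lay the other way: −0.11 and −0.34 in ash2-I1 and −0.44 and −0.66 in ash2-112411 against 1.05 and 1.31 in ash1-22, a difference of −1.57 ± 0.12 (adjusted p = 7.82e-04). *CG15012* stood at 0.25 and 0.08 in ash2-I1 and 0.58 and 0.78 in ash2-112411, against 1.75 and 1.74 in ash1-22, and its difference of −1.32 ± 0.10 was −2.27 on the common scale. The signal peptidase subunit *Spase12* (difference 1.14 ± 0.10), the mitochondrial peroxiredoxin *Prx3* (0.87 ± 0.09) and the JNK scaffold *POSH* (0.83 ± 0.11) were lowest in ash1-22. *Mthfs*, a folate cycle enzyme, was highest there (−1.06 ± 0.09). *Prx3* and *POSH* were not called for ash2-112411 alone, where the differences were 0.58 and 0.42. *Gnpnat*, of the pathway to the chitin precursor UDP-N-acetylglucosamine, stood at −0.97 and −0.68 in ash2-I1 and 0.06 and −0.13 in ash2-112411, against 1.05 and 0.97 in ash1-22, a difference of −1.44 ± 0.11 (adjusted p = 7.82e-04).

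Subunits of the respiratory chain and ATP synthase, which turn the energy of food into ATP, lay mostly above ash1-22 in *ash2*, whereas genes of the citrate cycle and of mitochondrial import lay on both sides. Whole discs were measured, so fewer cells of a type and less RNA per cell cannot be told apart, here and for the groups that follow. Of 57 measured genes, the assembly factors *Cox10* and *Cox17* among them, 8 were called higher and 1 lower, or 15.8%. With the adjusted p alone 30 were higher and 1 lower. Over all genes tested, 3.77% were called higher and 4.45% lower, and with the adjusted p alone 10.9% and 13.5%. In all, 49 of 57 differences were above 0, and their median was 0.35, beside −0.04 over all genes tested. The median ratio of the group was 0.32 and 0.26 in the ash2-I1 extractions and 0.29 and 0.31 in the ash2-112411 extractions, against 0.04 and 0.01 in ash1-22. The largest was the complex I subunit *ND-B14.7*, at 1.21 and 1.05 in ash2-I1 and 1.22 and 1.26 in ash2-112411 against 0.08 and 0.09 in ash1-22 (difference 1.10 ± 0.09, adjusted p = 7.82e-04). The complex I subunits *ND-PDSW* (0.88 ± 0.09) and *ND-ASHI* (0.68 ± 0.08) and the complex III subunit *UQCR-Q* (0.80 ± 0.09) were also higher, and *UQCR-Q* was below the pool in ash1-22 (−0.52 and −0.66) and above it in *ash2*. The gene called lower was *ATPsynC*, for the ring subunit of ATP synthase (−0.62 ± 0.12, adjusted p = 0.011), whose difference fell under 1.5-fold without ash2-I1 replicate 2 (−0.57), ash2-112411 replicate 2 (−0.54) or ash1-22 replicate 2 (−0.52, adjusted p = 0.11), after centring and on the common scale (−0.58 and −0.51). Taking ash2-112411 alone against ash1-22, 20 genes of the group were called higher and 1 lower, and with ash2-I1 alone 6 and 0. Without ash2-112411 replicate 1 there were 12 higher and 1 lower. Without ash1-22 replicate 2 the count was 4 higher and 0 lower, with a median of 0.30, and on the common scale it was 5 and 1. *ND-PDSW* (0.57) and *ATPsynC* (−0.47) were not called for ash2-I1 alone, nor *ND-ASHI* (0.45) for ash2-112411 alone. Of 13 measured genes of the citrate cycle, 1 was called higher and 1 lower, with a median of 0.01 and 7 above 0. The gene called lower was the NADP-dependent *Idh* described above. The gene called higher was *Idh3g*, a subunit of the NAD-dependent isocitrate dehydrogenase (1.00 ± 0.12, adjusted p = 0.0026), which differed by 1.64 on the common scale and by 0.55, not called, for ash2-112411 alone. Of 18 genes of mitochondrial import and chaperones, 2 were called higher and 1 lower, with a median of −0.02 and 8 above 0.

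Mitochondrial ribosomal proteins, which translate the few proteins encoded by the organelle, lay on the same side. Of 64 measured, 8 were called higher and 0 lower by limma, or 12.5% higher beside 3.77% of all genes tested. With the adjusted p alone 24 were higher and 1 lower, beside 10.9% and 13.5% of all genes. In all, 54 of the differences were above 0 with a median of 0.28. The group median was 0.30 and 0.31 in ash2-I1 and 0.26 and 0.24 in ash2-112411, against 0.01 and 0.00 in ash1-22. The *ash2* medians thus lay above both ash1-22 medians. Of single genes tested, 14.8% lay wholly above in this way. *mRpL33* was at 0.37 and 0.42 in ash2-I1 and 0.62 and 0.71 in ash2-112411, against −0.12 and −0.35 in ash1-22 (difference 0.77 ± 0.10, adjusted p = 0.0033), and *mRpL42* differed by 0.71 ± 0.09 (adjusted p = 0.0031). The other 6 differed by 0.59 to 0.65, close to the fold threshold, and without ash1-22 replicate 2 only 3 calls were made while the median was 0.26. Without ash2-112411 replicate 2 there were 5 calls. For ash2-112411 alone 16 were called higher and for ash2-I1 alone 9. Of the 8 called, *mRpS21* was high in ash2-112411 alone (1.39). It differed by −0.18 for ash2-I1 alone and by −0.16 on the common scale, not called in either. *mRpL2* (0.55) and *mRpL40* (0.44) also fell under the fold threshold on the common scale. Of 31 measured genes listed for the cytosolic ribosome, 3 were higher (*RpL27* among them) and 1 lower, with a median of −0.02. That list also holds *bonsai*, of the mitochondrial ribosome, and *RpLP0-like*.

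Glycolysis, the cytosolic breakdown of glucose, lay on the other side. All 10 measured enzymes had differences below 0, with a median of −0.53, and 6 were lower with the adjusted p alone, of which 3 were called. The called share was 30%, beside 4.45% of all genes tested called lower, and 13.5% of all were lower with the adjusted p alone. The group median was −0.74 and −0.47 in ash2-I1 and −0.50 and −0.57 in ash2-112411, against −0.14 and −0.24 in ash1-22. *fbp*, the fructose bisphosphatase that runs the pathway's reverse step, stood at −2.10 and −1.63 in ash2-I1 and −0.68 and −0.72 in ash2-112411 against −0.14 and −0.29 in ash1-22 (difference −1.07 ± 0.14, adjusted p = 0.0033). In ash2-112411 alone its difference of −0.49 was not called (adjusted p = 0.058). *Tpi* (−0.65 ± 0.14, adjusted p = 0.018) and *Pgk* (−0.63 ± 0.16, adjusted p = 0.027) were the other called enzymes, of triose phosphate and phosphoglycerate turnover. Both lost the call without ash2-I1 replicate 1, where they differed by −0.52 and −0.50, and without either ash1-22 extraction (adjusted p 0.085 to 0.16). *Pgk* also lost it without ash2-112411 replicate 1 (adjusted p = 0.055) and *Tpi* on the common scale (a difference of −0.50). The count was 6 without ash2-I1 replicate 2 and 1 without either ash2-I1 replicate 1 or ash1-22 replicate 1. For ash2-112411 alone limma called 0 enzymes, and for ash2-I1 alone 5.

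**Figure D3:**
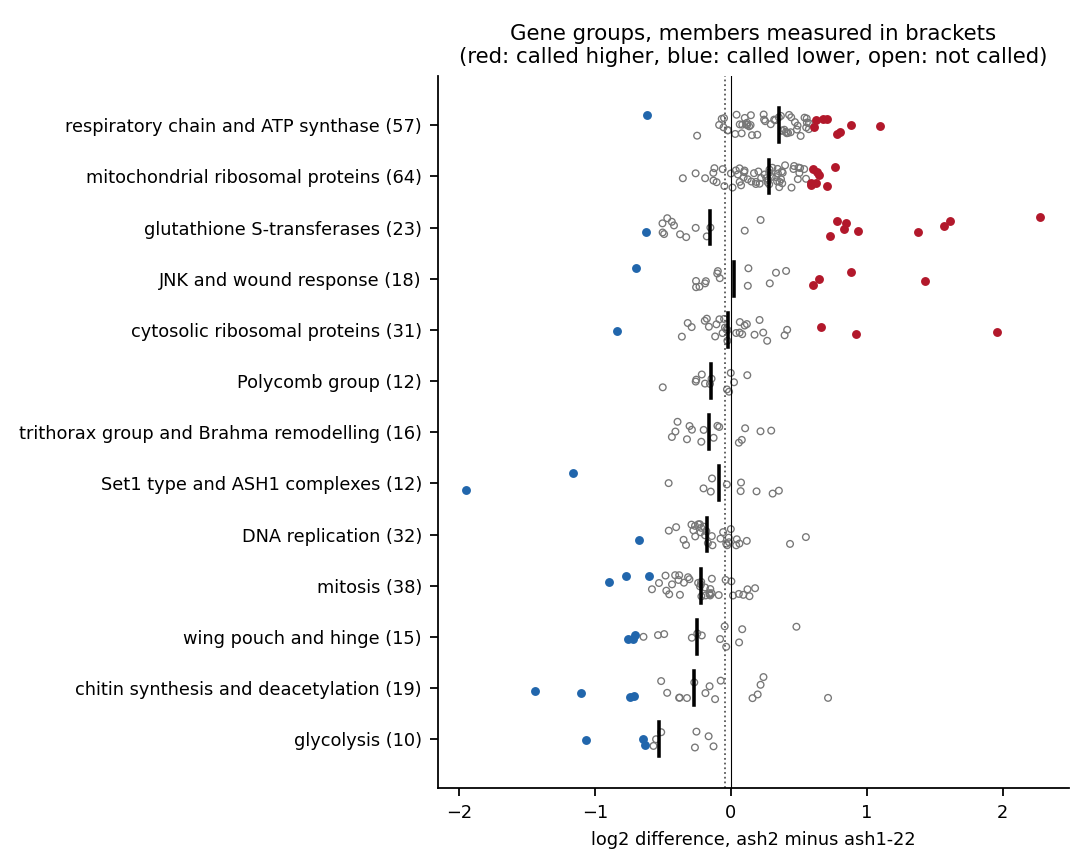
Each point is the log2 difference, *ash2* minus ash1-22, of 1 gene, in rows of gene groups with the number measured in brackets. Filled red points were called higher and filled blue points lower, the thick bar is the median of the group and the dotted line the median of all genes tested, −0.04. The respiratory chain and the mitochondrial ribosome lie to the right of that line and glycolysis to its left, and the glutathione S-transferases spread to both sides.

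The glutathione S-transferases, which couple glutathione to reactive compounds, held the largest share of called genes among the groups of 10 or more genes: 9 of 23 were higher and 1 was lower. That share was 43.5%, beside 8.22% of all genes tested. The other members did not follow. The median difference was −0.15, 11 of 23 were above 0, and 6 were lower with the adjusted p alone. The median turned to 0.11 for ash2-I1 alone and to 0.09 without ash2-I1 replicate 2. The largest differences were in the epsilon class. *GstE6* stood at 3.37 and 2.83 in ash2-I1 and 2.17 and 2.18 in ash2-112411, against 0.39 and 0.33 in ash1-22, a difference of 2.28 ± 0.14 (adjusted p = 3.95e-04). *GstE5* was at 1.84 and 1.75 in ash2-I1 and 1.29 and 1.19 in ash2-112411, against −0.08 and −0.03 in ash1-22 (1.57 ± 0.09, adjusted p = 2.28e-04). *GstE7* (1.61 ± 0.21) and *GstE3* (1.38 ± 0.11) were highest in ash2-I1. *GstE5* and *GstE7* were measured on 9 arrays and *GstE3* on 10. Of the delta class *GstD3* differed by 0.85 ± 0.08, and of the zeta class *GstZ1*, an enzyme of tyrosine breakdown, by 0.73 ± 0.10, and neither was called for ash2-112411 alone (0.47 for each). *GstD9* was above the pool in all 3 alleles, at 2.82 and 2.32 in ash2-I1 and 2.35 and 2.49 in ash2-112411, against 1.65 and 1.47 in ash1-22. Its difference of 0.93 ± 0.15 became −0.09 on the common scale (adjusted p = 0.61) and was not called without ash1-22 replicate 2 (0.06). *GstE13*, the gene called lower (−0.62 ± 0.11), lost its call without ash2-I1 replicate 1 (a difference of −0.54) or either ash1-22 extraction (adjusted p 0.071 and 0.074), and for ash2-112411 alone (−0.57). Neighbouring genes of this family are alike in sequence, and how far the probes separate them was not tested. Without ash1-22 replicate 2 the count was 6 higher and 0 lower, and on the common scale 8 and 3.

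Genes that build and modify chitin leaned to the lower side in *ash2*. Of 19 measured, 7 were lower and 0 higher with the adjusted p alone, beside 13.5% and 10.9% of all genes tested. At an unadjusted p under 0.05 limma gave 3 higher and 10 lower, and the median difference was −0.27. Called were 0 higher and 4 lower, and these 4 made 21.1%, beside 4.45% of all genes called lower. Beside *Gnpnat*, these were *obst-B*, a chitin-binding protein of the cuticle, at −1.25 and −0.99 in ash2-I1 and −0.81 and −1.06 in ash2-112411 against 0.01 and 0.14 in ash1-22 (difference −1.10 ± 0.12, adjusted p = 0.0017), the chitinase *Cht7* (−0.71 ± 0.09, adjusted p = 0.0035) and *knk*, which protects new chitin (−0.75 ± 0.10, adjusted p = 0.004). *knk* lost its call without ash1-22 replicate 2 (adjusted p = 0.052) and on the common scale, where it differed by −0.57. The group median was −0.34 and −0.27 in ash2-I1 and −0.27 and −0.16 in ash2-112411, against 0.04 and 0.11 in ash1-22. The *ash2* medians thus lay below both ash1-22 medians. Of single genes tested, 20.3% lay wholly below in this way. The structural cuticle proteins showed no such common direction, with 1 of 30 higher, 4 lower and a median of 0.06. *Cpr65Ec*, the lowest of them, was far below the pool in ash2-I1 alone (−3.34 and −2.81), and ash2-112411 (−0.22 and −0.20) was above ash1-22 (−0.63 and −0.75).

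The selector gene of the wing was lower in *ash2*. *vg* (*vestigial*), which with *sd* specifies wing identity and drives growth of the pouch, stood at −1.08 and −1.12 in ash2-I1 and −0.80 and −0.82 in ash2-112411, against −0.26 and −0.24 in ash1-22, a difference of −0.70 ± 0.08 (adjusted p = 0.0022). On the common scale it was −0.50 with an adjusted p of 0.013, and for ash2-112411 alone −0.56 (adjusted p = 0.0082), both under the fold threshold. Of 15 genes of the wing pouch and hinge, 1 was higher and 5 lower with the adjusted p alone, beside 10.9% and 13.5% of all genes tested. The median difference was −0.25. Called were 0 higher and 3 lower, or 20% lower beside 4.45% of all genes. The other 2 were *grn*, a GATA factor (−0.72 ± 0.11, adjusted p = 0.0061), and *Doc2*, a T-box factor of the hinge (−0.76 ± 0.21, adjusted p = 0.038). *grn* lost its call without ash1-22 replicate 2 (adjusted p = 0.064) and on the common scale (0.14). *Doc2* was low in ash2-I1 alone, at −2.14 and −1.30, with ash2-112411 at −0.26 and −0.19 and ash1-22 at −0.31 and −0.12, and its call was lost when any extraction except ash2-I1 replicate 2 was left out. The group count was 1 lower without ash1-22 replicate 2 and 1 higher and 1 lower on the common scale. *nub*, another pouch gene, differed by −0.08 ± 0.13 (adjusted p = 0.68). Of the genes of the anterior/posterior and dorsal/ventral axes, *en*, the posterior selector, was lower (−0.69 ± 0.11, adjusted p = 0.007). So was *trn*, a leucine-rich repeat cell surface protein (−0.70 ± 0.09, adjusted p = 0.0028). *en* lost its call without ash1-22 replicate 2 (adjusted p = 0.075), and on the common scale both fell under the fold threshold at −0.47 and −0.42, as they did for ash2-112411 alone at −0.53 and −0.41. Against these stood *mirr*, the only gene called higher in either list.

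Genes of mitosis leaned to the lower side in *ash2* by small amounts, and the medians of DNA replication genes did so in ash2-112411 only. The share called was 7.89% for mitosis and 3.12% for DNA replication, beside 8.22% of all genes. With the adjusted p alone, 13.5% of all genes were lower. Of 38 mitosis genes, 14 were lower and 0 higher with the adjusted p alone, 3 were called lower, and 31 of the 38 differences were below 0 with a median of −0.22. The group median was −0.34 and −0.28 in ash2-I1 and −0.42 and −0.42 in ash2-112411, against −0.15 and −0.11 in ash1-22. *pbl* (*pebble*), the exchange factor that starts the contractile ring of cytokinesis, was at −1.04 and −1.13 in ash2-I1 and −1.18 and −1.38 in ash2-112411 against −0.26 and −0.31 in ash1-22 (difference −0.90 ± 0.09, adjusted p = 0.0017). The checkpoint kinase *Mps1* (−0.77 ± 0.12) lost its call without ash1-22 replicate 2 (adjusted p = 0.066). *fzy*, the activator of the anaphase-promoting complex (−0.61 ± 0.10), lost it without ash2-I1 replicate 1, ash2-112411 replicate 2 or either ash1-22 extraction, for ash2-I1 alone, on the common scale and after centring, where the differences ran from −0.45 to −0.61. Without ash1-22 replicate 2 the group had 1 call, and with ash2-I1 or ash2-112411 alone it had 9 and 6. DNA replication genes (32 measured, 0 called higher, 1 called lower, median −0.18) had group medians of −0.35 and −0.40 in ash2-112411, below those in ash2-I1 (−0.09 and −0.04) and in ash1-22 (−0.12 and −0.06). *Cdk4*, the G1 kinase that couples growth to division, averaged −1.23 in ash2-I1 and −1.80 in ash2-112411 against −0.40 in ash1-22 (difference −1.12 ± 0.15, adjusted p = 0.0035).

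Beside the 8.22% of all genes that were called, the share was 16.7% of 12 subunits of the Set1 type and ASH1 complexes, 40% of 5 members of the Sin3 deacetylase complex, and 0 of the Polycomb and of the other trithorax genes. *Caf1-55*, the histone-binding subunit shared by nucleosome assembly, Polycomb, ASH1 and Sin3 complexes, was lower in *ash2*: it stood at −1.20 and −1.26 in ash2-I1 and −1.45 and −1.65 in ash2-112411, against −0.31 and −0.14 in ash1-22 (difference −1.17 ± 0.10, adjusted p = 9.40e-04). With *ash2* it made the 2 calls in the Set1 type and ASH1 complexes, so the 16.7% includes the mutated gene itself. *Caf1-55* was counted in that list alone and is not part of the counts given for the Polycomb and Sin3 genes. Of the Sin3 complex, 2 were lower, the deacetylase *HDAC1* (−0.64 ± 0.10) and the H3K4 demethylase *Kdm5* (−0.65 ± 0.10). *HDAC1* lost its call without ash1-22 replicate 1 (adjusted p = 0.057) and for ash2-112411 alone (−0.56). *Kdm5* lost it without ash1-22 replicate 2 (0.063), for ash2-I1 alone (−0.52) and on the common scale (−0.46). Of 12 Polycomb group genes 0 were called and 1 was lower with the adjusted p alone, and of 16 other trithorax group and Brahma genes 0 were called and 3 were lower with the adjusted p alone, by limma in both lists. At an unadjusted p under 0.05 there were 0 higher and 2 lower Polycomb genes, and 1 higher and 5 lower of the others. The median differences were −0.15 and −0.16. In both groups ash2-112411 had the lowest median (−0.59 for Polycomb, −0.49 for trithorax), with ash2-I1 (−0.11 and −0.20) near ash1-22 (−0.21 and −0.16).

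The JNK and wound response genes called higher stood further above ash1-22 in ash2-I1 than in ash2-112411. Of 18 measured, 4 were called higher and 1 lower, or 27.8% beside 8.22% of all genes tested, with a median of 0.02. *upd1*, the ligand of the JAK/STAT receptor, stood at 2.88 and 1.99 in ash2-I1 and 0.30 and 0.66 in ash2-112411, against 0.03 and 0.03 in ash1-22 (difference 1.43 ± 0.23, adjusted p = 0.0062). *puc*, the phosphatase that JNK induces against itself, was at 1.08 and 0.64 in ash2-I1, while ash2-112411 (−0.31 and −0.17) overlapped ash1-22 (−0.39 and −0.20), and its difference was 0.61 ± 0.14 (adjusted p = 0.02). *Ets21C*, a transcription factor of injured and stressed tissue (0.65 ± 0.10), and the stress gene *Gadd45* (0.89 ± 0.17) had the same order of allele means. The gene called lower was *wgn*, a receptor of the tumour necrosis factor Eiger (−0.70 ± 0.14), which lost its call without ash1-22 replicate 1 (adjusted p = 0.051) or replicate 2 (0.12) and on the common scale (−0.51), and for ash2-112411 alone (−0.55). For ash2-112411 alone 1 of the 18 was called higher, and for ash2-I1 alone 6 were higher and 1 lower. Without ash1-22 replicate 2 no gene of this group was called by limma (adjusted p 0.051 for *upd1*, 0.081 for *puc*, 0.05 for *Ets21C* and 0.089 for *Gadd45*). Without ash1-22 replicate 1, 2 were called higher, and *puc* (adjusted p = 0.14) and *Ets21C* (0.055) were not. *puc* also fell under the fold threshold without ash2-I1 replicate 1 (0.50) or ash2-112411 replicate 2 (0.57), and *Ets21C* on the common scale (0.38).

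Other tissues were looked for with marker lists, as ratios to the pool, which carry no level and so cannot show whether a marker is present. Of 7 hemocyte and 7 tracheal markers limma called 0, and 0 and 2 had an adjusted p under 0.05 (unadjusted, 0 hemocyte markers, and 2 higher and 3 lower tracheal markers). The hemocyte group median ran from 0.01 to 0.38 over the *ash2* extractions and from −0.06 to 0.18 over the ash1-22 extractions. Of 12 muscle genes, *Mlc2* was called (0.94 ± 0.25, adjusted p = 0.033), but not on the common scale (adjusted p = 0.29), nor without ash2-112411 replicate 1 (0.06), ash2-112411 replicate 2 (0.066) or ash1-22 replicate 2 (0.23), and the group median was 0.52 and −0.13 in ash2-I1 and 0.28 and 0.21 in ash2-112411, against 0.09 and 0.18 in ash1-22. Of 4 fat body genes *Tsf1* was called, and *Lsp2* differed by −2.58 ± 1.06 (adjusted p = 0.12). Its ratio of 4.19 in ash1-22 extraction 1 stood apart from the other 5 extractions, which ranged from −1.90 to 0.99. *Npc2b* was the 1 of 5 gut genes called (0.88 ± 0.14, adjusted p = 0.0055), and not without ash1-22 replicate 2 (0.05). The part of other tissues in the differences was not tested.

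**Figure D4:**
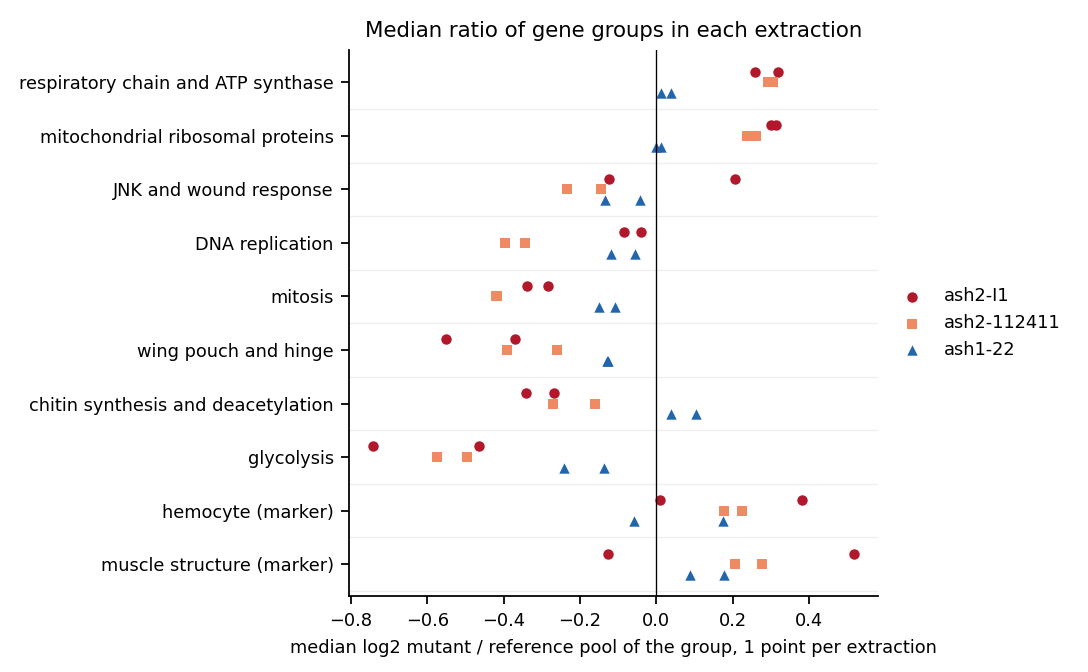
Median log2 ratio of mutant over reference pool of the genes of each group, 1 point per extraction, for ash2-I1, ash2-112411 and ash1-22. The *ash2* points lie above ash1-22 for the respiratory chain and the mitochondrial ribosome, and below it for mitosis, wing pouch, chitin and glycolysis. For the JNK, DNA replication, hemocyte and muscle groups the extractions overlap.

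Further groups had 2 calls or fewer in each direction. Over all genes tested, 3.77% were called higher and 4.45% lower. The proteasome (27 measured, 1 higher, 0 lower, median 0.13) and the spliceosome (19, 1 higher, 0 lower, 0.16) leaned to the higher side, and the nucleolus (31, 0 called, 0.04), the Mediator (20, 0 called, −0.04) and the aminoacyl-tRNA synthetases (27, 0 called, 0.07) lay close to all genes. With the adjusted p alone, limma found 7 higher and 2 lower among the nucleolar genes, 1 and 1 in the Mediator and 4 and 1 among the synthetases, and at an unadjusted p under 0.05 these were 9 and 2, 2 and 3, and 7 and 2. Fatty acid oxidation (10 measured, 0 called, 0 higher and 2 lower with the adjusted p alone and 0 and 6 with the unadjusted p, by limma) had a median of −0.28. The ecdysone response (14, 1 higher, 2 lower) was led by *br*, the early gene of metamorphosis, whose probe on all arrays differed by −0.86 ± 0.11 (adjusted p = 0.0035), while its 4 other probes differed by −0.66 to −0.03, and it was not called for ash2-112411 alone (−0.55). The serine protease inhibitors split: *Spn27A*, which restrains Toll signalling, and *Spn77Ba*, which restrains melanization in the trachea, were lower (−1.04 ± 0.11 and −0.97 ± 0.10), and *Spn47C* was higher (1.08 ± 0.11), but not called for ash2-112411 alone (0.46). The Hippo pathway (13 measured) had 0 calls and 0 genes with an adjusted p under 0.05 in limma, and 0 higher and 3 lower at an unadjusted p under 0.05.

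The share of called genes is given by chromosome arm as a description, with no test of the difference between arms. On X, 4.95% of 888 tested genes were called, on 2L 7.91% of 961 and on 2R 7.15% of 1063, against 9.84% of 1047 on 3L and 10% of 1335 on 3R, the arms of the chromosome that was not exchanged for that of the isogenic line. On the small chromosome 4, 22.2% of 27 genes were called, 3 higher (*toy*, *unc-13* and *yellow-h*) and 3 lower (*CG31997*, *Mpv17* and *mav*). Without ash1-22 replicate 2, *CG31997* (adjusted p = 0.051), *unc-13* (0.052) and *Mpv17* (0.065) lost their calls, *unc-13* (0.084) and *Mpv17* (0.056) also without ash1-22 replicate 1, and *Mpv17* without ash2-I1 replicate 1 (a difference of −0.58). *Mpv17* was also not called for ash2-I1 alone (−0.57), nor *unc-13* for ash2-112411 alone (adjusted p = 0.061). The methods name no exchange of chromosome 4. Counting measured genes along the arm, in the gene order of RefSeq, 6 of the 20 genes nearest to *ash2* on 3R were called, or 30%, 2 higher and 4 lower. They were *CG13623*, the homologue of an iron-sulfur assembly factor (1.03 ± 0.12), *Polr2L*, an RNA polymerase subunit (0.64 ± 0.10), *CG31125* (−1.25 ± 0.15), *Cftr* (−0.79 ± 0.10) and the adjacent Tolloid proteases *tok* (−0.95 ± 0.10) and *tld* (−0.61 ± 0.08). *CG31125*, the next measured gene to *ash2*, was at −1.60 and −1.10 in ash2-I1 and −1.69 and −1.54 in ash2-112411 against −0.31 and −0.15 in ash1-22. *tld* lost its call without ash2-I1 replicate 1 (a difference of −0.58) or ash1-22 replicate 2 (adjusted p = 0.055), after centring (−0.57) and for ash2-112411 alone (−0.34). *Polr2L* lost it for ash2-I1 alone (0.33), on the common scale (0.44), without ash2-112411 replicate 2 (0.57) and without either ash1-22 extraction (adjusted p 0.06 and 0.058). Of the 100 measured genes nearest to *ash2*, 11% were called. Around *ash1* on 3L the shares were 10% of 20 genes and 9% of 100. The 2 called among the 20 were *CG18294* (−0.78) and *CG9372* (0.85), and *CG9372* fell under the fold threshold on the common scale (0.51). *alphaSnap*, *Spn77Ba* and *in*, all called lower, lie close together on that arm, at places 47, 48 and 53 from *ash1*. *Idh3g* and *RpL27*, both called higher and lowest in ash1-22, lie on 3R at places 80 and 81 from *ash2*. Loss of the gene and the mutant chromosome's own background cannot be told apart in this design.

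**Figure D5:**
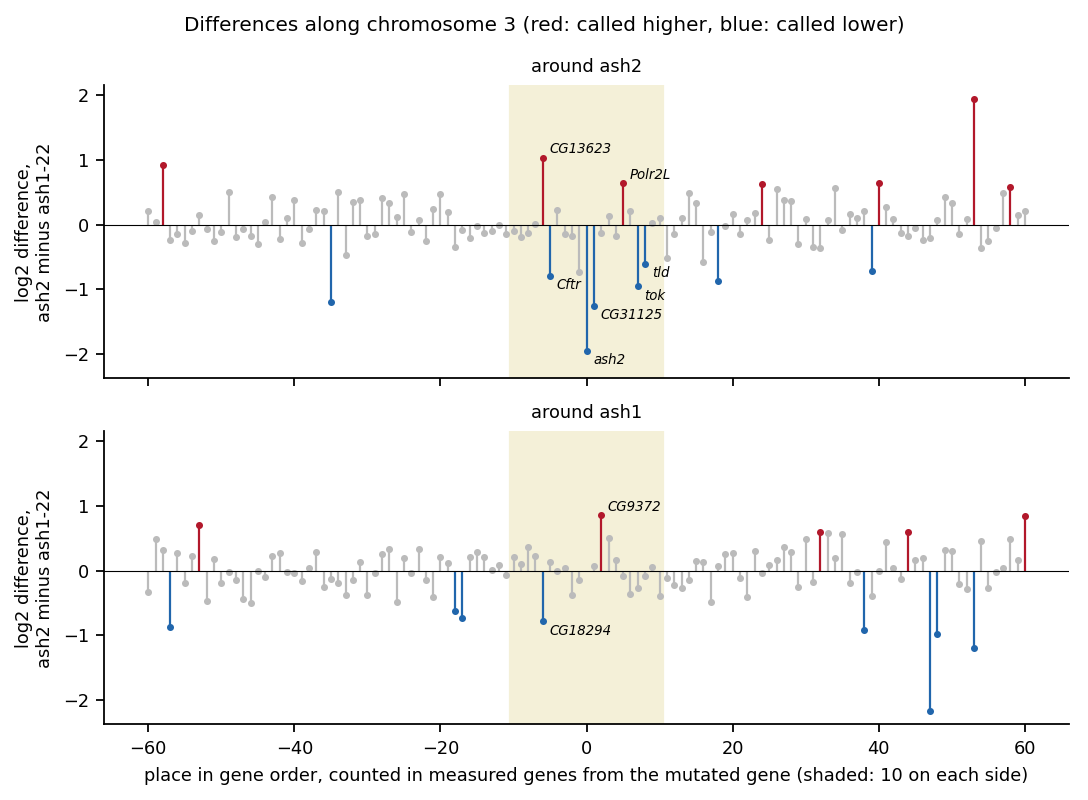
Log2 difference, *ash2* minus ash1-22, of the measured genes up to 60 places on each side of *ash2* (upper panel) and *ash1* (lower panel, where *ash1* itself has no value), in gene order along chromosome 3. Red marks genes called higher, blue genes called lower, grey the rest, and the shaded band holds the 10 nearest genes on each side, of which 6 were called around *ash2* and 2 around *ash1*.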

How the data were processed

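The authors scanned dual-channel oligonucleotide arrays and quantified them with GenePix, removed spots of low quality, corrected background with limma's normexp method, normalized within arrays with OLIN and then brought the 4 arrays of each allele to a like spread (median absolute deviation). What they deposited is a log2 ratio (Cy5 to Cy3) per spot and array, and 14258 of the 16416 spots hold at least 1. Signal over background is not part of them, and the number of arrays limits the precision. The sign was turned on arrays labelling the mutant with Cy3, and the arrays of each extraction averaged. Where 1 array of an extraction lacked a value the other was used, with its dye bias. Within an allele, turned arrays of the same dye from different extractions correlated at 0.772 to 0.938. Dye swaps of the same extraction correlated at 0.371 to 0.775, the lowest in ash2-112411. Of the calls, 100 of the 205 higher and 127 of the 242 lower were measured on all 12 arrays. Probes were named by updating the platform annotation's gene IDs to RefSeq symbols, so that 13164 probes carry 1 symbol. Probes with several symbols (101) and spots not listed (3151) named no gene.

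The 6 extractions entered one linear model in limma (3.58.1, under R 4.3.3, with 11698 probes, prior SD 0.118, 4.35 prior degrees of freedom), with 1 mean per allele and a shared spread. An allele entered for a probe when both its extractions had a value. The contrast could be had for 5664 probes, over which the two-sided p-values received the Benjamini-Hochberg correction. A gene was represented by its probe on the most arrays. The fit was tested on simulated data. The rule for genes to name took *ash2*, the 15 highest and the 15 lowest called genes on all 12 arrays with groups that do not overlap, the 8 largest of the classes opposite and ash1-22 only, and the 4 largest of each gene group on at least 9 arrays, which makes 107 genes. Not all of them are described. Genes near the mutated loci, on chromosome 4 and in the closing observations were chosen after their values were seen, as were *nub*, *Lsp2* and other uncalled genes and some called group members. Members, groups and tests were chosen with earlier results of these data known. Alternatives were a common scale for all arrays, centring, complete probes, single arrays with a dye term, robust moderation, each *ash2* allele alone, the replicate number as a block and leaving out each extraction. A search of promoter sequences was not run, and no sequence is used here.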

Additional observations from a re-analysis of the deposited data

Results flagged for a closer look

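For 14 of the genes with the largest differences, the *ash2* alleles differed from each other by over 1.5-fold with an adjusted p under 0.05 in limma's contrast of ash2-I1 minus ash2-112411. In 8 of them the gene was further above ash1-22 in ash2-I1: *wun2* (1.66 between the *ash2* alleles), *CG2909* (1.38), *Ugt302K1* (1.30), *GstE6* (0.93, adjusted p = 0.0085), *CG18547* (0.93), *Cul2* (0.92, adjusted p = 0.037), *CG42553* (0.86) and *Osi14* (0.77). *POSH*, whose lowest level was in ash1-22, was also higher in ash2-I1 (0.81). In the other 5 the gene was further below ash1-22 in ash2-I1: *CG4914* (−1.76), *Kal1* (−1.07), *CG9266* (−0.88), *in* (−0.67) and *Mthfs* (−0.64). The call against ash1-22 was lost for *wun2* without ash1-22 replicate 1 (adjusted p = 0.08) or replicate 2 (0.06), for *Cul2* likewise (0.081 and 0.068), and for *CG4914* without ash1-22 replicate 2 (0.057). With ash2-112411 alone *wun2* (0.35), *Cul2* (0.71), *CG4914* (−0.55) and *POSH* (0.42) were not called. For each of these 14 genes the size of the difference from ash1-22 was thus larger in ash2-I1.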

How the results depend on the processing

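Among the 2382 genes measured on all 12 arrays, 101 were higher and 129 lower, with fewer genes tested. With ash2-I1 alone 345 genes were higher. Leaving out 1 extraction gave 107 to 246 higher genes, 117 to 282 lower genes and 224 to 1435 genes with an adjusted p under 0.05, the lowest without ash1-22 replicate 2 and 354 of the last without ash1-22 replicate 1, where a single ash1-22 value remained. On the common scale 149 of the 205 higher and 154 of the 242 lower calls were kept and 3 changed sign. *Cpr65Ec* changed sign with ash2-112411 alone (0.48, adjusted p = 0.074). Of the 107 genes named by rule, 43 lost the call without ash1-22 replicate 2, 38 with ash2-112411 alone, 28 without ash1-22 replicate 1, 22 on the common scale, 12 each without ash2-I1 replicate 1 or ash2-112411 replicate 2, 10 with ash2-I1 alone, 7 without ash2-112411 replicate 1, 6 after centring, 3 with the dye term and 0 without ash2-I1 replicate 2, with the replicate block, with robust moderation or on complete probes. The numbers of the extractions do not pair them, since the deviations of same-numbered extractions correlated at 0.102, −0.046 and −0.163 between alleles. With the replicate block 208 genes were higher, 244 lower and 1273 had an adjusted p under 0.05, and 205 and 241 of the calls were kept. With 2 extractions in ash1-22, only differences well above the median SE of 0.10 could be called.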

Other observations

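Genes that make iron-sulfur clusters and genes of glycogen turnover were noticed among the called genes, and the full sets were written down afterwards, so that their counts are descriptions with no test. Of 20 measured genes of iron-sulfur cluster assembly, 7 were called higher in *ash2* than in ash1-22 and 0 lower, 17 of the differences were above 0, and the median was 0.39. Over all genes tested, 3.77% were called higher. *CG13623*, among the 7, is also among the called genes nearest to *ash2*, where loss of the gene and the chromosome's background cannot be told apart. The group's median ratio was 0.69 in ash2-I1 and 0.44 in ash2-112411, against 0.10 in ash1-22. Beside *IscU* and *CG13623*, the cytosolic assembly factors *Nubp1* (1.37 and 1.18 in ash2-I1 and 0.79 and 0.88 in ash2-112411 against 0.11 and 0.08 in ash1-22, a difference of 0.96 ± 0.09), *Nubp2* (0.79 ± 0.09) and *CIAPIN1* (0.71 ± 0.09) were higher, and so was the cysteine desulfurase *Nfs1* (0.85 ± 0.16), which supplies the sulfur. *Nfs1* was raised in ash2-I1 (1.49 and 0.91) and close to the pool in ash2-112411 (0.20 and 0.04), and its call was lost without either ash1-22 extraction (adjusted p 0.069 and 0.068). *Las*, the lipoic acid synthase that uses such clusters, completed the 7 (0.84 ± 0.09). *CIAPIN1* (0.39) and *Nfs1* (0.31) were not called for ash2-112411 alone. *Nubp2* fell under the fold threshold on the common scale (0.57). The chaperone *Hsc70-5* (0.20 ± 0.09, adjusted p = 0.15) and the frataxin *fh* (−0.05 ± 0.09, adjusted p = 0.7) were not called.

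Of 5 measured genes of glycogen metabolism, 3 were called lower and 0 higher, and all 5 differences were below 0, with a median of −0.74. Over all genes tested, 4.45% were called lower. The glycogen phosphorylase *Glyp* averaged −1.01 in ash2-I1 and −1.10 in ash2-112411, against 0.03 in ash1-22 (difference −1.09 ± 0.09, adjusted p = 9.22e-04), and the branching enzyme *AGBE* differed by −0.97 ± 0.10 (adjusted p = 0.0016). The synthase *Glys* (−0.74 ± 0.12, adjusted p = 0.007) lost its call without ash1-22 replicate 2 (0.074) and on the common scale, where it differed by −0.46. The genes that build the polymer and the gene that breaks it down thus lay on the same side.

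Among the called genes, *CG32207* and *CG18294* had the highest ratios in ash1-22, and they were high in all 3 alleles. *CG32207* stood at 2.45 and 2.40 in ash2-I1 and 2.83 and 2.46 in ash2-112411, against 3.58 and 3.26 in ash1-22, and differed by −0.89 ± 0.14. *CG18294* differed by −0.78 ± 0.17 (adjusted p = 0.016), and its call was lost without ash1-22 replicate 1 (0.11) or replicate 2 (0.074) and for ash2-112411 alone (a difference of −0.50, adjusted p = 0.093). On the common scale it differed by −2.56. *CG18294* lies at place −6 from *ash1* in the order of measured genes, where loss of the gene and the chromosome's background cannot be told apart.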
